A study of Mus musculus with 16 samples.

Results

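The mitochondrial genome of the mouse encodes a small set of genes, written with the prefix mt-, and every row of the deposited gene table whose name starts with that prefix was taken here. There were 37 such rows among 55414, namely 13 protein-coding genes, 2 ribosomal RNA genes and 22 transfer RNA genes. The prefix alone decided which rows belong, and the rule used no measured value. The 24 RNA genes held no value in any library, so the measurements below concern the 13 protein-coding genes, of which 7 were counted in quantity and 6 stood at 0 to 3 counts per library.

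The study set out to find the pathways and genes that respond in mouse melanoma cells to what its title calls decoy antibodies that block extracellular HSP70. Wild-type B16-F10 cells, an established pigmented melanoma line that the labels place under skin, were kept in DMEM with fetal bovine serum, and their RNA was taken after 24 hours with an antibody, which was Mel321-31 in 4 of the libraries analysed here, Mel322-34 in 4, Mel321-35 in 3 and the isotype control MGO.53 in 4. All 15 libraries were of polyadenylated RNA, and 14 carry the batch label 1, while Mel321-35 replicate 1 carries the batch label 2. Mel321-35 replicate 2 was not analysed here, and tests used the 14 libraries of batch 1, so that Mel321-35 entered them with n = 2. The labels call the samples biological replicates of 1 cell line without saying whether they were separate cultures, so the p-values rest on a spread between samples that may be technical.

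Libraries held 19.4 M to 37.96 M counts (M is 1000000). The melanocyte genes Tyrp1 (11459 to 12987 CPM, counts per 1000000 counts of a library) and Pmel (5726 to 6572 CPM) were high in all batch 1 libraries, and the 7 melanocyte markers together made up 29983 to 30466 CPM with Mel321-31, 29411 to 30560 CPM with Mel322-34, 29295 to 30116 CPM with Mel321-35 and 29633 to 30385 CPM with MGO.53. The skin keratinocyte marker Krt1 and the endothelial marker Cdh5 were at 0 in all of these libraries. The 4 keratinocyte markers summed to at most 0.309 CPM and the 2 endothelial markers to at most 0.271 CPM. The 4 fibroblast markers summed to 7.45 to 11.2 CPM and the 4 leukocyte markers to 13.6 to 19.1 CPM, where Cd68 alone had 13.4 to 18.7 CPM. Of 4 tested markers of simple epithelium and mesothelium, 3 were lower with Mel321-31, 1 with Mel322-34 and 0 with Mel321-35, against MGO.53 at an adjusted p under 0.05 by edgeR, beside 2.13, 2.84 and 0.00683% of all genes. Of the 7 melanocyte markers 1, 2 and 0 were lower in the same test and 0 were higher. The 5 markers of simple epithelium and mesothelium summed to 4.70 to 8.63, 6.59 to 19.8 and 9.25 to 17.3 CPM with these antibodies against 13.9 to 25.0 CPM with MGO.53, with Epcam at 0 throughout. What part these cells or transcripts had in the mitochondrial values was not tested.

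In mammalian cells the mitochondrial DNA is copied and transcribed inside the organelle, from promoters that yield long transcripts of each strand. These are then cut at the transfer RNAs that punctuate them, and most of the resulting messengers receive a short poly(A) tail. The proteins they encode are all core subunits of the respiratory chain, 7 of them in complex I (NADH dehydrogenase), 1 in complex III (cytochrome bc1), 3 in complex IV (cytochrome c oxidase) and 2 in complex V (ATP synthase). The other subunits, and all proteins needed to transcribe, process and translate the mitochondrial messengers, are nuclear gene products. Fragments of mitochondrial DNA also lie in nuclear chromosomes as pseudogenes, and a read from a messenger can match both places.

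A run of 6 neighbouring genes was counted almost nowhere. The table listed mt-Co2 (subunit of complex IV) at 0 except for 2 counts in Mel321-31 replicate 4 and 3 in MGO.53 replicate 1. It listed mt-Atp6 (complex V) at 0 except for 1 count in Mel321-35 replicate 1, and mt-Nd3 (complex I) at 0 except for 1 count in Mel321-35 replicate 3. The genes mt-Atp8 (complex V), mt-Co3 (complex IV) and mt-Nd4l (complex I) were at 0 in all 15 libraries. At these depths 3 counts correspond to 0.0790 to 0.154 CPM, an upper limit for a count of 0 that covers counting error only. On the mitochondrial chromosome no other protein-coding gene lies between these 6, which stand in a stretch of 3161 bases at chrM:7013-10173 (GRCm38, GENCODE M21), between mt-Co1, with 137198 to 224478 counts a library, and mt-Nd4, with 24997 to 41233. The sources used here do not name the build of the table, and these positions are those of GENCODE M21, which held 52133 of the 55414 identifiers.

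Of these 6 genes, 5 have an identical or nearly identical copy in a single nuclear stretch on chromosome 1, and the other lies between them. In the GENCODE M21 transcripts, pseudogenes of these 5 lie one after the other on the minus strand at chr1:24611535-24616197, together with matches to the end of mt-Co1 and the start of mt-Nd4. The pseudogene Gm28661 was identical to mt-Co2 over 681 bases, Gm10925 to mt-Atp6 over 678 bases, Gm28437 to mt-Co3 over 783 bases and Gm10222 to mt-Nd4l over 294 bases, while Gm28438 matched mt-Nd3 at 99.7% over 345 bases. For mt-Atp8 the closest annotated pseudogene matched at 81.4% over 167 bases. The copies of mt-Co2 and mt-Atp6 are separated by 233 bases, as are the matching ends of the genes themselves on the mitochondrial chromosome, where mt-Atp8 lies in between and overlaps mt-Atp6 by 43 bases. Whether the copies set the counts was not tested, and the sources used here do not say how reads that match several places were treated.

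A stretch of 90 bases from mt-Co2 shows what such a copy looks like, beside the same stretch of mt-Cytb, a gene that was counted in full, and its closest copy. Sequences are in lower case with the bases that differ within each pair in capitals, and positions count from 1 at the start of the gene. The mt-Co2 stretch (chrM:7313-7402, plus strand) and that of Gm28661 (chr1:24615176-24615265, minus strand) have no capitals, and those of mt-Cytb (chrM:14445-14534, plus strand) and Gm11410 (chr4:80004289-80004378, plus strand) have 8.
mt-Co2: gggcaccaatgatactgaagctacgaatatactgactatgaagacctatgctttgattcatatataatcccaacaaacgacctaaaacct
Gm28661: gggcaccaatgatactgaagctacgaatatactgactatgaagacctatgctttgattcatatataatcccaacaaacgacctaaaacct
mt-Cytb: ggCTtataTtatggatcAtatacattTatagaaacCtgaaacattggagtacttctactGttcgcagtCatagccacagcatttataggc
Gm11410: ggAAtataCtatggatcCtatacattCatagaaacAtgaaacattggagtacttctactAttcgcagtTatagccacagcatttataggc

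For mt-Nd3 the copy differs at a single place near the start, T3C, where the base of mt-Nd3 comes first and that of Gm28438 second. The first 61 bases show it (mt-Nd3 at chrM:9459-9519, plus strand, and Gm28438 at chr1:24613059-24613119, minus strand).
mt-Nd3: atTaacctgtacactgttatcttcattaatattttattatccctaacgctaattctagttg
Gm28438: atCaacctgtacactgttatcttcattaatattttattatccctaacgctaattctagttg

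The gene mt-Nd4 is split by such a match. Its first 876 of 1378 bases are identical to the pseudogene Gm28439, and the remaining bases are not in it. The bases 817 to 936 (chrM:10983-11102, plus strand) run across this border, and the capitals mark what lies past the end of the match.
mt-Nd4: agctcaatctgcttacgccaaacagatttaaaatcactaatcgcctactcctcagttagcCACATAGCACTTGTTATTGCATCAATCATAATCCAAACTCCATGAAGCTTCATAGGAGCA

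To describe how much of each gene is its own, every stretch of 100 bases was looked up in the transcripts of all other genes of GENCODE M21. No other gene held any such stretch of mt-Nd1, mt-Nd5, mt-Nd6, mt-Cytb and mt-Atp8, and 96.8% of those of mt-Nd2, 69.2% of those of mt-Co1 and 39.2% of those of mt-Nd4 were found in no other gene. For the genes with copies on chromosome 1 that share was 0.513% (mt-Co2), 0.515% (mt-Atp6), 0.146% (mt-Co3), 2.41% (mt-Nd3) and 1.52% (mt-Nd4l). The genes at or near 0 were thus those with hardly a stretch of their own and, as the exception, mt-Atp8. Genomic sequence outside annotated transcripts was not used here.

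**Figure D1:**
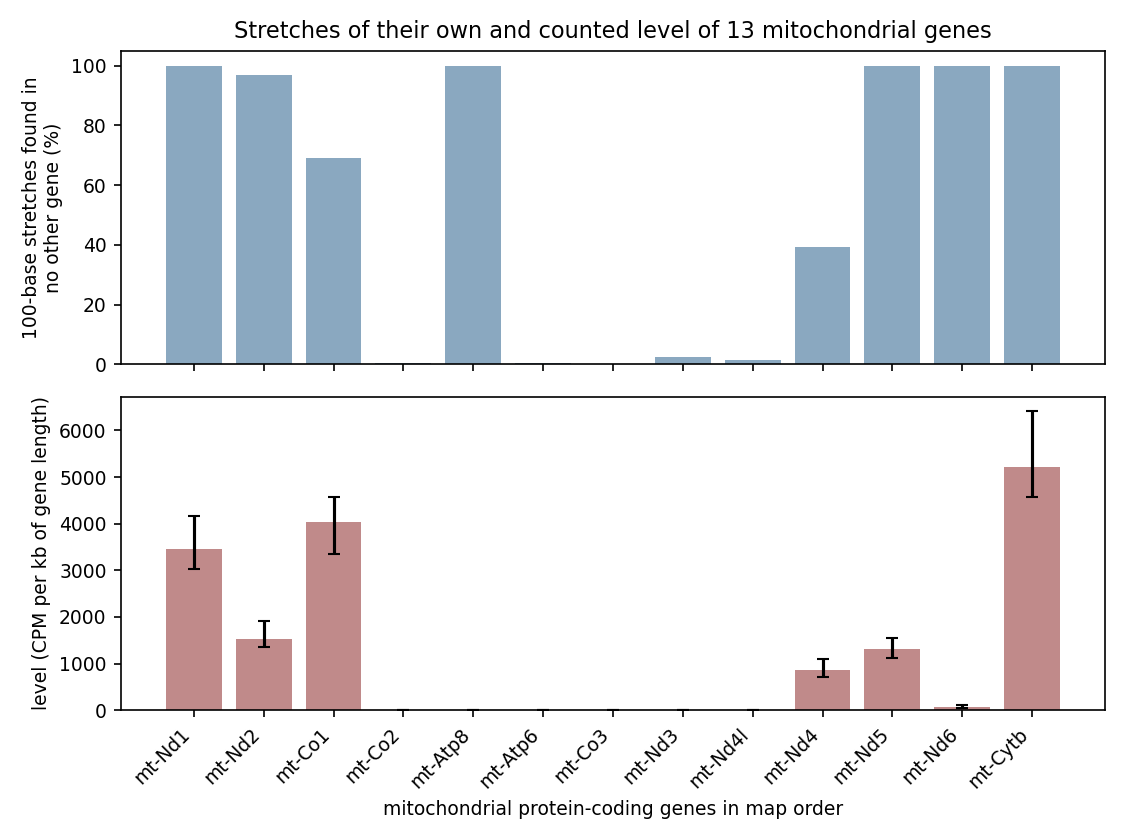
The 13 mitochondrial protein-coding genes stand in map order along the x axis. The upper bars give the percentage of their 100-base stretches found in no other gene's transcripts, from 0.146% for mt-Co3 to 100% for 5 genes. The lower bars give the median level over the 14 batch 1 libraries in CPM per kb of gene length, with lines for the lowest and highest of these libraries. The 6 adjacent genes from mt-Co2 to mt-Nd4l are at or near 0.

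The pseudogenes themselves drew few counts. Gm28661, Gm10925 and Gm28437 had at most 4, 3 and 2 counts in a library. Gm28438 had 25 to 39 counts with Mel321-31, 13 to 45 with Mel322-34, 11, 36 and 32 with Mel321-35 (the first of these in batch 2) and 25 to 40 with MGO.53, against at most 1 count for mt-Nd3. Gm13340, which matches the whole of mt-Co1 at 97.6%, had 15 to 55 counts in a library, and Gm13341, which matches mt-Co2 at 95.9%, had 10 to 39. The groups overlapped in the counts of Gm28438. The highest of these values, 55 counts, was far below the 597 counts of mt-Nd6 in its lowest library, the smallest count of the 7 counted genes.

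Per length, the 7 counted genes spanned a wide range of levels. The medians over the 14 batch 1 libraries, to which all levels per length below refer, were 5207 CPM per kb for mt-Cytb, the complex III subunit cytochrome b. They were 4029 for mt-Co1, the catalytic subunit of complex IV, and 3462 for mt-Nd1. They were 1531 CPM per kb for mt-Nd2, 1302 for mt-Nd5 and 863 for mt-Nd4, all of complex I. The lowest was mt-Nd6 at 60.1 CPM per kb, the one protein-coding gene of the opposite strand, and its lowest and highest library were 47.8 and 120.1 CPM per kb. The ranges of mt-Nd2 (1345 to 1909 CPM per kb) and mt-Nd5 (1126 to 1540 CPM per kb) overlapped, and those of mt-Cytb (4566 to 6407 CPM per kb) and mt-Co1 (3344 to 4566 CPM per kb) met at their ends. The order depends on how copies are handled. Per 1000 stretches of their own, in place of length, mt-Co1 (6224 CPM) stood above mt-Cytb (5701 CPM), and mt-Nd4 (2370 CPM) stood above mt-Nd2 (1749 CPM) and mt-Nd5 (1376 CPM). The overlap of mt-Nd5 and mt-Nd6 is 14 bases on opposite strands. The libraries were made strand-specific per the labels' protocols, but the sources used here do not say if the counting was stranded, so reads of mt-Nd6 and of the transcript opposite to it cannot be told apart.

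The 7 genes together took a small and rather even share of the counts. It was 1.85 to 2.06% with Mel321-31, 1.96 to 2.17% with Mel322-34, 2.00 and 2.16% in the batch 1 libraries of Mel321-35 and 1.95 to 2.47% with MGO.53, and the batch 2 library of Mel321-35 had 1.85%. The ranges of each antibody and of MGO.53 overlapped. The mean share relative to MGO.53 was 0.884 for Mel321-31, 0.928 for Mel322-34 and 0.939 for Mel321-35, and without MGO.53 replicate 2 it was 0.92, 0.965 and 0.977. Because the 24 RNA genes and 6 of the messengers are missing from the counts, this share is not that of all mitochondrial RNA, and fewer mitochondrial messengers per cell cannot be told apart from more of other RNA.

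Among batch 1 libraries the share moved with the depth of the library. In each of the 4 groups the batch 1 library with the fewest counts had the highest share and the one with the most counts the lowest. For Mel321-35, with 2 such libraries, these are 1 observation. The batch 2 library of Mel321-35, with 26.1 M counts, did not follow this order and had the lowest share of all 15 libraries (1.846%). MGO.53 replicate 2, with 19.4 M counts, had the highest share of all (2.47%), and Mel321-31 replicate 3, with 37.96 M, the lowest within batch 1 (1.85%). The groups differed in depth as well, with 35.9 ± 2.88 M counts for Mel321-31, 32.0 ± 2.42 for Mel322-34, 30.7 ± 6.41 for Mel321-35 (n = 2) and 26.2 ± 5.76 for MGO.53 (SD, n = 4 each where not stated). With depth and antibody moving together in this way, their parts in the differences that follow cannot be told apart by the design.

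**Figure D2:**
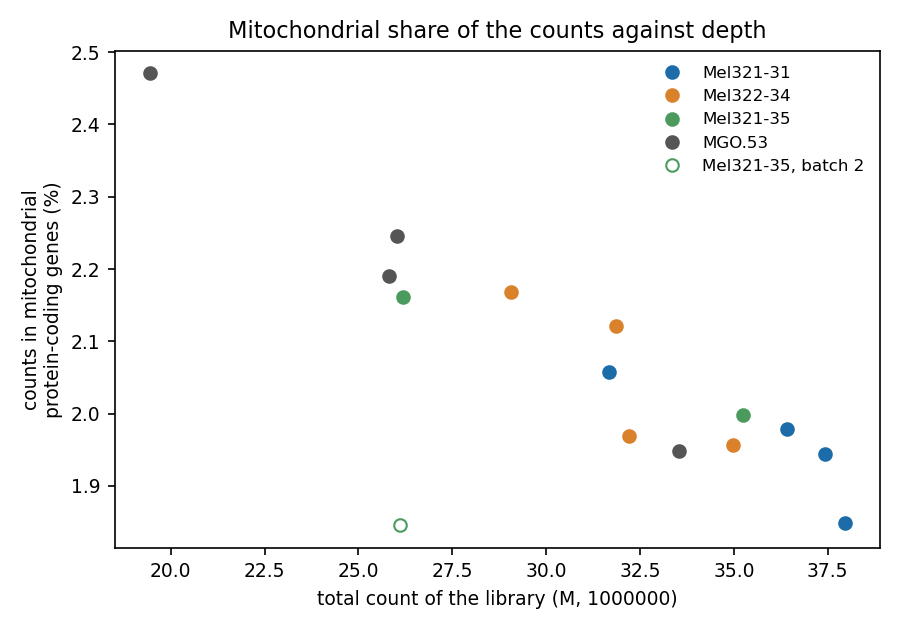
Each point is a library, with its total count in M (1000000) on the x axis and the percentage of its counts in mitochondrial protein-coding genes on the y axis. Among batch 1 libraries the share is highest in the shallowest (19.4 M, 2.47%) and lowest in the deepest (37.96 M, 1.85%). The open point is the batch 2 library of Mel321-35 (26.1 M, 1.846%), which does not follow this order. The y axis does not start at 0.

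With Mel321-31, 3 of the 7 counted genes fell relative to MGO.53 and 0 rose, in edgeR's quasi-likelihood test at an adjusted p under 0.05. Over all 14633 genes tested 3.53% were called in this comparison, 2.13% as lower, and the median log2 fold change was -0.0014 over all genes and -0.21 over the 7. They were mt-Nd4 and mt-Nd2, 2 membrane subunits of the proton-pumping arm of complex I, and mt-Cytb, which carries the quinone sites of complex III. A further 3 genes, mt-Nd1, mt-Nd5 and mt-Co1, had an unadjusted p under 0.05 without passing. The highest of these, 0.0441 for mt-Co1 (edgeR), had rank 2451 of the 14633 genes. Leaving out MGO.53 replicate 2 brought the count of 3 to 1, leaving out replicate 1 of that group brought it to 5, and by DESeq2 it was 1. Without the filter on low counts it was 7, in a fit of 26649 genes in which edgeR gave every gene the common trend of spread and no spread of its own.

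The gene mt-Nd4 (ENSMUSG00000064363) showed the largest drop of the 7. It had 1161, 1114, 987 and 1093 CPM (here and below TMM-scaled) in the Mel321-31 libraries, against 1233, 1518, 1386 and 1374 CPM in the MGO.53 libraries. Every Mel321-31 library was thus below every MGO.53 library, a separation found as lower for 5.38% of all genes tested. The means were 1089 ± 73.3 CPM in the Mel321-31 libraries and 1378 ± 116 CPM in the MGO.53 libraries (n = 4 each, SD), the log2 fold change was -0.34 ± 0.050 (SE) and the adjusted p was 0.000779 by edgeR, with rank 1 of the 14633 genes by p. It stayed called with each of the 14 libraries left out in turn, at -0.39 to -0.29, and in 15 of 16 other settings. The exception was a fit with the log2 total count as a covariate, added after the shares had been seen to move with depth, where it was -0.13 (adjusted p = 0.421). That fit called no gene of the whole table with Mel321-31.

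The other calls were smaller and were lost with some libraries left out. mt-Cytb (ENSMUSG00000064370) had 6086, 5774, 5205 and 5585 CPM with Mel321-31 against 5893, 7368, 6521 and 6454 CPM with MGO.53. The groups overlapped through Mel321-31 replicate 1 and MGO.53 replicate 1, and the log2 fold change was -0.21 ± 0.049 (SE, adjusted p = 0.0132, edgeR). It was not called without Mel321-31 replicate 3 (-0.17, adjusted p = 0.0680) or without MGO.53 replicate 2 (-0.15, adjusted p = 0.104), by DESeq2 (adjusted p = 0.0703), or in edgeR fits of all 15 libraries with no batch term (adjusted p = 0.0606) or with the total count covariate (0.006, adjusted p = 0.978). mt-Nd2 (ENSMUSG00000064345) had 1406, 1433, 1530 and 1459 CPM with Mel321-31 against 1429, 1992, 1695 and 1831 CPM with MGO.53. The single MGO.53 library among the Mel321-31 values was replicate 1, the deepest of its group, and the log2 fold change was -0.25 ± 0.063 (SE, adjusted p = 0.0228, edgeR). That call was lost without Mel321-31 replicate 2 (adjusted p = 0.0878), Mel321-31 replicate 4 (0.0644), MGO.53 replicate 2 (0.156) or MGO.53 replicate 4 (0.0950), all by edgeR, with log2 fold changes of -0.25 to -0.18. It was lost too by DESeq2 (adjusted p = 0.110), and by edgeR over all 15 libraries with no batch term (adjusted p = 0.0884), with the length trend removed (adjusted p = 0.112) and with the covariate (-0.023, adjusted p = 0.952).

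The remaining 4 genes did not pass with Mel321-31. mt-Nd1, the subunit at the junction of the arms of complex I, averaged 3165 ± 35.7 CPM in the Mel321-31 libraries and 3524 ± 391 CPM in the MGO.53 libraries (n = 4 each, SD), which is -0.16 on the log2 scale (adjusted p = 0.0931, edgeR). mt-Nd5, another proton-pumping subunit, averaged 2211 ± 76.2 CPM in the Mel321-31 libraries against 2454 ± 333 CPM with MGO.53 (-0.15, adjusted p = 0.124, edgeR). mt-Co1 averaged 6009 ± 668 CPM with Mel321-31 against 6517 ± 523 CPM with MGO.53 (-0.12, adjusted p = 0.264, edgeR), and mt-Nd6 averaged 28.3 ± 4.17 CPM with Mel321-31 against 32.9 ± 5.34 CPM with MGO.53 (-0.22 ± 0.15 SE, adjusted p = 0.482, edgeR). For mt-Nd1 and mt-Nd5 the MGO.53 libraries spread far more than the Mel321-31 libraries.

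**Figure D3:**
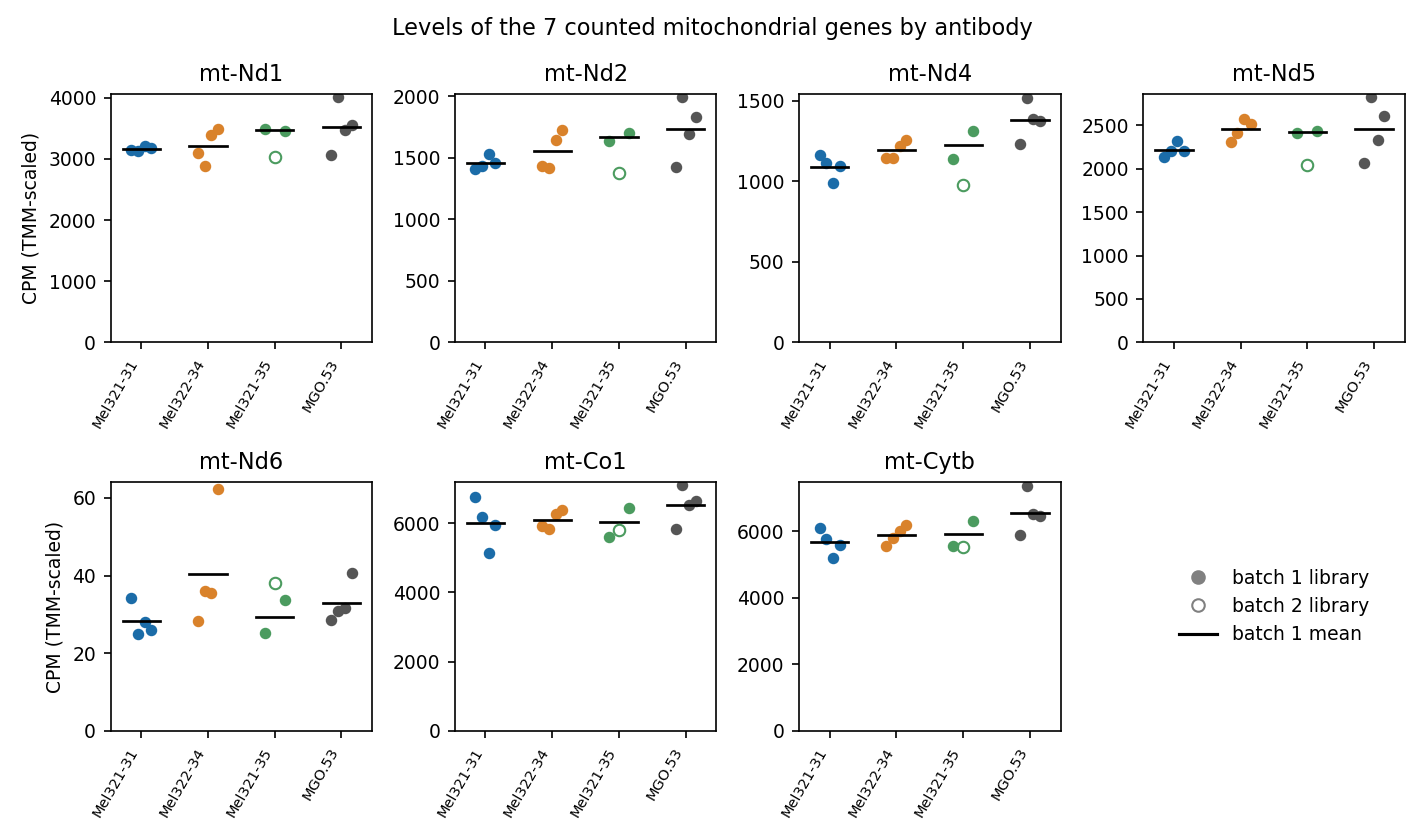
Each panel is a counted mitochondrial gene, with the TMM-scaled CPM of each library on the y axis and the antibody groups along the x axis. Filled points are batch 1 libraries, the open point is the batch 2 library of Mel321-35 and lines are batch 1 means. All 4 Mel321-31 libraries of mt-Nd4 (987 to 1161 CPM) lie below all 4 MGO.53 libraries (1233 to 1518 CPM).

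With Mel322-34 the same gene fell, and it was the one call of the 7, where 6.87% of all genes were called and 2.84% as lower. mt-Nd4 had 1148, 1146, 1220 and 1256 CPM with Mel322-34 against the 1233 to 1518 CPM of MGO.53. Only Mel322-34 replicate 4 reached into the MGO.53 range, and the log2 fold change was -0.21 ± 0.050 (SE, adjusted p = 0.0132, edgeR). Both comparisons share the MGO.53 libraries. The call was lost without MGO.53 replicate 2 (-0.16, adjusted p = 0.0804), with a trend on transcript length removed (-0.13, adjusted p = 0.107) and with total count as a covariate (-0.07, adjusted p = 0.394), all by edgeR. It was also lost in a fit of all 15 libraries with no batch term (-0.21, adjusted p = 0.0634, edgeR). The fit with the covariate called fewer genes of the whole table with Mel322-34 than the main fit. The count of 1 became 4 without MGO.53 replicate 1, and 2 without Mel321-31 replicate 1 or 3, Mel322-34 replicate 4 or Mel321-35 replicate 3 or 4.

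The other genes under Mel322-34 stayed short of the threshold. mt-Cytb averaged 5894 ± 274 CPM in the Mel322-34 libraries and 6559 ± 608 CPM in the MGO.53 libraries (n = 4 each, SD), a difference of -0.15 on the log2 scale with an adjusted p of 0.0515 by edgeR. It was called with 6 of 14 libraries left out in turn and in 6 of 16 other settings. mt-Nd2 (-0.16, adjusted p = 0.130), mt-Nd1 (-0.13, 0.121) and mt-Co1 (-0.094, 0.335) had lower means with Mel322-34, while mt-Nd5 differed by -0.0019 (0.989), with 2450 ± 114 CPM with Mel322-34 against 2454 ± 333 CPM with MGO.53. mt-Nd6 was the one gene with a higher mean, 40.5 ± 14.9 CPM with Mel322-34 against 32.9 ± 5.34 CPM with MGO.53 (0.29, adjusted p = 0.259, edgeR), and its value came largely from Mel322-34 replicate 4. That library had 62.2 CPM, against 28.3, 35.9 and 35.4 CPM in the other Mel322-34 libraries, and without it the log2 fold change of mt-Nd6 was 0.013.

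With Mel321-35 none of the 7 passed by edgeR, where 0.041% of all genes did, and 2 had an unadjusted p under 0.05. These were mt-Nd4, with 1136 and 1311 CPM with Mel321-35 in batch 1 (-0.17 ± 0.062 SE against MGO.53, adjusted p = 0.299, edgeR), and mt-Cytb, with 5546 and 6303 CPM (-0.15 ± 0.060 SE, adjusted p = 0.365, edgeR). Their unadjusted p-values, 0.0102 and 0.0207 by edgeR, had rank 500 and 828 of the 14633 genes. The batch 2 library, which entered no test, had 975 CPM of mt-Nd4, the lowest of all 15 libraries, and 5536 CPM of mt-Cytb. Every batch 1 fold change of the 7 genes was negative for this antibody, between -0.17 and -0.019. By DESeq2 and by limma-voom the count of called genes was also 0, and without the filter on low counts it was 2.

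**Figure D4:**
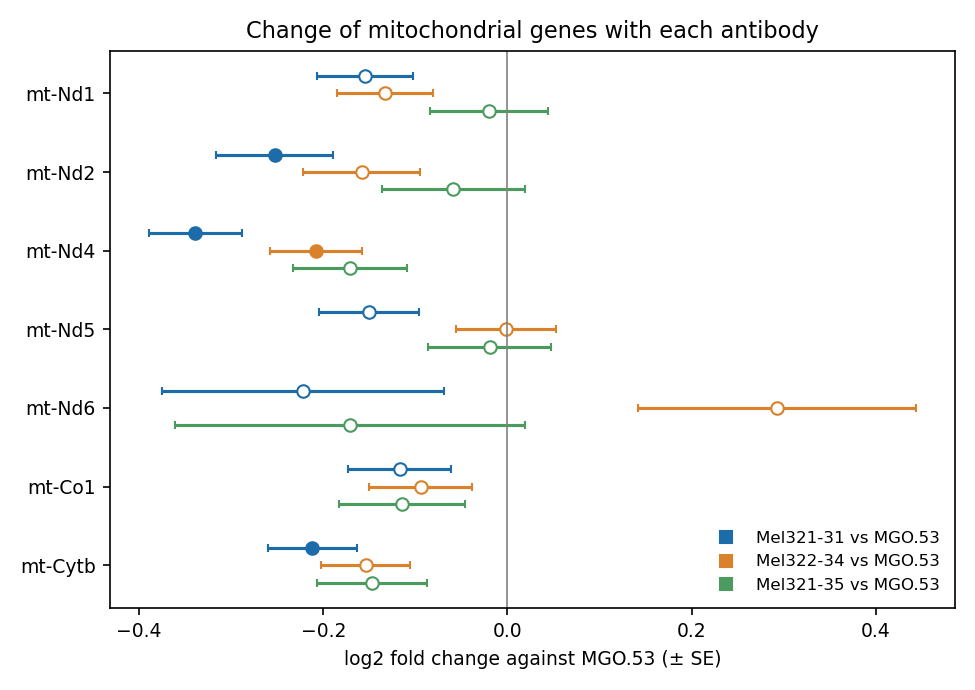
The x axis is the log2 fold change of each antibody against MGO.53 (batch 1 libraries) with its standard error, and the 7 counted genes run down the y axis. Filled points passed at an adjusted p under 0.05 by edgeR, namely mt-Nd4, mt-Nd2 and mt-Cytb with Mel321-31 and mt-Nd4 with Mel322-34. The 3 comparisons share their MGO.53 libraries.

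Between antibodies 0 of the 7 genes passed by edgeR in any of the 3 comparisons, in which 0.0205% (Mel321-31 against Mel322-34), 0.103% (Mel321-31 against Mel321-35) and 0.26% (Mel322-34 against Mel321-35) of all genes did, and 3, 3 and 1 of the 7 had an unadjusted p under 0.05. By DESeq2 and limma-voom the counts were 0 as well, and without the filter on low counts they were 3, 3 and 1 by edgeR. So the drop of mt-Nd4 with Mel321-31 was not shown to differ from that with Mel322-34 (-0.13 ± 0.050 SE for the difference, unadjusted p = 0.0144 and adjusted p = 0.620 by edgeR) or with Mel321-35 (-0.17 ± 0.061 SE, adjusted p = 0.464 by edgeR). The highest unadjusted p-values under 0.05 in these comparisons were 0.0144 (mt-Nd4), 0.0423 (mt-Nd1) and 0.0198 (mt-Nd6) by edgeR. In the order given above, they had ranks 340, 1028 and 713 of the 14633 genes. The largest difference was in mt-Nd6, with a log2 fold change of -0.52 ± 0.15 (SE) for Mel321-31 against Mel322-34 (adjusted p = 0.415, edgeR), or -0.23 without Mel322-34 replicate 4. In mt-Nd1, mt-Nd2 and mt-Nd5 both batch 1 libraries of Mel321-35 lay above all 4 of Mel321-31, a separation found in this direction for 9.39% of all genes. The batch 2 library of Mel321-35, which entered no test, lay below all 4 of Mel321-31 in each of these genes. It had 3030 CPM of mt-Nd1, 1374 CPM of mt-Nd2 and 2037 CPM of mt-Nd5.

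Within the mitochondrial counts themselves, mt-Nd4 also took a smaller part with the antibodies. This share does not use the library total, and its own relation to depth was not tested. It was 5.36 to 5.61% of the counts of the 7 genes with Mel321-31, 5.77 to 5.89% with Mel322-34, 5.72 and 6.05% in the batch 1 libraries of Mel321-35 and 6.11 to 6.32% with MGO.53, so that no batch 1 antibody library reached the lowest MGO.53 library. The batch 2 library of Mel321-35 had 5.19%. The part of mt-Nd5 with Mel322-34 (11.6 to 12.3%) lay above that with MGO.53 (10.5 to 11.6%) without overlap. For the other 5 genes each antibody overlapped with MGO.53, as did mt-Nd5 with Mel321-31 and Mel321-35, and the largest parts were those of mt-Co1 (27.9 to 32.6%) and mt-Cytb (27.9 to 30.2%) over the batch 1 libraries.

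The ratio of mt-Nd4 to single partners was lower on average with each antibody than with MGO.53, and the order of the antibodies differed with the partner. The count of mt-Nd4 over that of mt-Cytb was 0.190 to 0.196 with Mel321-31, 0.197 to 0.206 with Mel322-34, 0.205 and 0.208 with Mel321-35 and 0.206 to 0.213 with MGO.53, and 0.176 in the batch 2 library. Mel321-31 was below MGO.53 without overlap, and the other antibodies reached the lower end of the MGO.53 range. Over mt-Co1 it was 0.172 to 0.192 with Mel321-31, 0.194 to 0.197 with Mel322-34, 0.202 and 0.204 with Mel321-35 and 0.207 to 0.214 with MGO.53. Over mt-Nd5 it was 0.427 to 0.545 with Mel321-31, 0.475 to 0.50 with Mel322-34, 0.471 and 0.539 with Mel321-35 and 0.528 to 0.599 with MGO.53, so that Mel321-31 and Mel321-35 overlapped with MGO.53, while Mel322-34 did not and had the lowest mean (0.487, against 0.494 with Mel321-31, 0.505 with Mel321-35 and 0.565 with MGO.53). These shares and ratios are a description with no test, and mt-Nd4 was singled out after its values were seen. The 39.2% of its 100-base stretches that are its own, the lowest among the counted genes, stand beside them, and what part the copy had in the ratio was not tested.

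**Figure D5:**
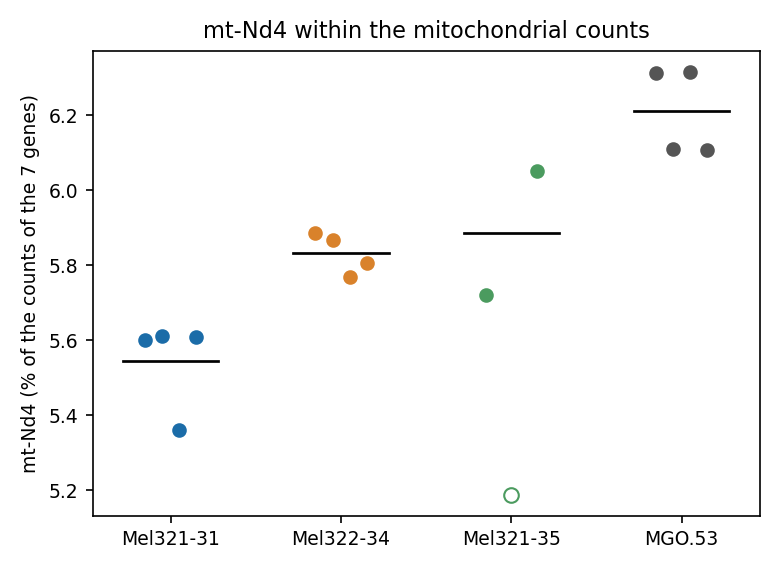
The y axis is the count of mt-Nd4 as a percentage of the counts of the 7 mitochondrial genes in each library, by antibody along the x axis, with batch 1 libraries filled, the batch 2 library open and lines for batch 1 means. Mel321-31 (5.36 to 5.61%) and Mel322-34 (5.77 to 5.89%) lie below MGO.53 (6.11 to 6.32%). The y axis does not start at 0.

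Few of the nuclear genes that serve mitochondrial gene expression were called. Of 112 tested members of 4 lists (transcription and maintenance of mitochondrial DNA, processing and decay of its RNA, its translation, and regulators of mitochondrial biogenesis), 0 passed with Mel321-31, 2 with Mel322-34 and 0 with Mel321-35 (edgeR), beside the 3.53, 6.87 and 0.041% of all genes. At an unadjusted p under 0.05 there were 9, 16 and 11, by DESeq2 1, 7 and 1 passed, and by limma-voom 0, 1 and 0. For scale, an unadjusted p of 0.0441 by edgeR (mt-Co1) had rank 2451 of the 14633 genes with Mel321-31. With Mel322-34 a p of 0.0185 (mt-Nd2) had rank 2089 and a p of 0.0629 (mt-Nd6) rank 3554, both by edgeR. With Mel321-35 a p of 0.0207 (mt-Cytb) had rank 828 and a p of 0.105 (mt-Co1) rank 2711, both by edgeR. For Mel322-34 and Mel321-35 the number of all genes under 0.05 lies between the ranks given, and its exact value is not given here. The share of all genes passing by DESeq2 and limma-voom is not given here. Tefm, the elongation factor of mitochondrial transcription, rose with Mel322-34 to 15.1 ± 0.869 CPM against 12.6 ± 0.583 CPM with MGO.53 (n = 4 each, SD, log2 fold change 0.25, adjusted p = 0.0457 by edgeR). Mrm1, which methylates the large mitochondrial ribosomal RNA, fell to 13.6 ± 0.556 CPM with Mel322-34 against 16.5 ± 1.96 CPM with MGO.53 (-0.29, adjusted p = 0.0353 by edgeR). Neither call was stable, as between 0 and 3 members passed with single libraries left out. None passed without Mel322-34 replicate 3, Mel322-34 replicate 4, MGO.53 replicate 3 or MGO.53 replicate 4 by edgeR, and 1 without Mel321-31 replicate 2, 3 or 4 or MGO.53 replicate 2. With Mel321-31, 2 passed without its replicate 1 and 1 without MGO.53 replicate 1.

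The core factors did not pass with any antibody. Polrmt, the mitochondrial RNA polymerase, averaged 40.3 ± 0.934 CPM with Mel321-31, 40.2 ± 1.86 with Mel322-34, 40.6 ± 3.89 with Mel321-35 (n = 2) and 45.1 ± 2.79 with MGO.53 (SD, n = 4 where not stated), with log2 fold changes of -0.16, -0.16 and -0.15 (adjusted p = 0.101, 0.0738 and 0.425, edgeR). Tfam, which packages and bends the promoter DNA, differed by 0.056, 0.028 and 0.075, and the initiation factor Tfb2m by 0.11, 0.056 and 0.11. Lrpprc, which with its partner Slirp keeps mitochondrial messengers stable, differed by 0.12 with Mel321-31 (131 ± 2.17 CPM, against 120.3 ± 5.75 CPM with MGO.53, adjusted p = 0.0813, edgeR), 0.076 with Mel322-34 and 0.073 with Mel321-35. Slirp differed by -0.0086, -0.14 and 0.0022.

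A minority of the nuclear partners of the same complexes fell with Mel321-31 and Mel322-34. Of 77 nuclear respiratory chain genes tested, 6 were lower with Mel321-31 (7.79%), 19 with Mel322-34 (24.7%) and 0 with Mel321-35 (edgeR, none higher in any), beside 2.13, 2.84 and 0.00683% of all genes called as lower. With Mel322-34 the lower genes were spread over complex I (6 of 36, for example Ndufb7 at -0.24), complex III (4 of 9, for example Uqcrq at -0.26), complex IV (3 of 11, for example Cox6b1 at -0.23) and complex V (6 of 17, for example Atp5g2 at -0.38 and the ATP synthase inhibitor Atpif1 at -0.28). With Mel321-31 they were Ndufa7 (-0.21), Ndufa10 (-0.14), Uqcrq (-0.24), Cyc1 (-0.11), Cox8a (-0.22) and Atpif1 (-0.25). At an unadjusted p under 0.05 there were 27, 40 and 14 with Mel321-31, Mel322-34 and Mel321-35. In these comparisons an unadjusted p of 0.0441, 0.0185 and 0.0207 by edgeR had rank 2451, 2089 and 828 of the 14633 genes. An unadjusted p of 0.158, 0.0629 and 0.105 by edgeR had rank 4809, 3554 and 2711. The number of all genes under 0.05 lies between these ranks and is not given here. By DESeq2 8, 29 and 2 passed, and by limma-voom 6, 18 and 0. None of the 4 subunits of complex II, the one complex with no mitochondrially encoded part, passed with any antibody. The nuclear counts depend on the setting: with the total count covariate they were 0 for each antibody, and with the trend on transcript length removed 4 for Mel321-31 and 6 for Mel322-34. Without Mel321-31 replicate 1 they were 24, 31 and 1, and without MGO.53 replicate 2 they were 1 and 10 for Mel321-31 and Mel322-34. For Mel321-31 they were also 2 without its replicate 2 or 4 and 3 without its replicate 3, and for Mel322-34 9 without its replicate 3. The share of all genes called by DESeq2, by limma-voom and without single libraries is not given here.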

How the data were processed

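The deposited values are read counts of each gene, made by the authors, and beside them a normalised signal equal to the count over 1 size factor per library, given for rows with a total of at least 10 counts. STAR 2.7.10a, HTSeq 2.01 and DESeq2 produced them, per the submitters' processing notes, and the sources used here give no build or annotation. The tests used the counts. They ran in edgeR 4.0.16 (R 4.3.3) by the quasi-likelihood F-test, with TMM scaling and the default low-count filter, in 1 fit of 14 batch 1 libraries in 4 groups (10 residual degrees of freedom, biological coefficient of variation 5.46%), and p-values were Benjamini-Hochberg adjusted over 14633 genes. The standard error was the log2 fold change, without its sign, over the square root of F. The fit was also run on simulated counts with the same spread for every gene and no link between share and depth. That run does not bear on the mitochondrial calls. CPM per kb, mitochondrial shares and marker sums used the total count, and other CPM the TMM-scaled total. Copies were found with BLAST 2.17.0 (word size 16) among GENCODE M21 transcripts.

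The mt- genes were taken up as a set, and the gene lists were chosen, with earlier results of these data known, although the prefix alone decides which rows are members. All mt- rows were described. From the nuclear lists the text could name Polrmt, Tfam, Tfb2m, Lrpprc and Slirp and, per antibody, up to 4 called members of each list, those of smallest p. The 24 RNA rows held no values, as all rows of the miRNA, snoRNA and snRNA classes. Of 55414 rows 6250 held no value, 0 named no gene, and there were 0 further columns of per-sample values. The total count of a library was 19.4 M to 37.96 M (M is 1000000). Alternatives were DESeq2 1.42.0, limma-voom (limma 3.58.1), other scalings, filters and thresholds, fits of 2 groups, all 15 libraries, a replicate block, a length trend removed, and each library left out. Total count as a covariate was added after the data were seen.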

Additional observations from a re-analysis of the deposited data

How the results depend on the processing

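Of the 6 comparisons, the count of called mitochondrial genes stayed at 0 in Mel321-35 against MGO.53 and in the 3 between antibodies, in all settings but 1. With no filter on low counts it was 2 for Mel321-35 against MGO.53, and 3 (Mel321-31 against Mel322-34), 3 (Mel321-31 against Mel321-35) and 1 (Mel322-34 against Mel321-35). For Mel321-31 against MGO.53 the count of 3 became 1 by DESeq2, 7 with no filter, 1 at an adjusted p under 0.01, 1 over 15 libraries with no batch term and 0 with log2 total count as a covariate, and 1 to 5 with single libraries left out. For Mel322-34 against MGO.53 the count of 1 became 2 with RLE or upper quartile scaling, the authors' size factors, 2 groups alone or a replicate block, and 6 with no filter. It became 0 at an adjusted p under 0.01, over 15 libraries with no batch term, with the length trend removed and with the covariate, and 0 to 4 with single libraries left out. The nuclear genes of mitochondrial gene expression went to 1 with Mel321-31 by DESeq2 or with no filter (0 to 2 with libraries left out). With Mel322-34 the 2 became 7 by DESeq2, 1 by limma-voom, with 2 groups alone, over 15 libraries with no batch term or with the length trend removed, and 0 at an adjusted p under 0.01 or with the covariate (0 to 3 with libraries left out), and with Mel321-35 they went to 1 by DESeq2. The nuclear respiratory chain genes called as 6 with Mel321-31 became 11 with no filter, 2 at an adjusted p under 0.01, 10 with 2 groups alone or a replicate block, 1 over 15 libraries with no batch term and 0 with the covariate (1 to 24 with libraries left out). The 19 with Mel322-34 became 29 by DESeq2, 7 at an adjusted p under 0.01, 6 with the length trend removed and 0 with the covariate (9 to 31), and the 0 with Mel321-35 became 2 by DESeq2, 4 with no filter and 3 with 2 groups alone (0 to 1). The share of all genes called in most of these settings is not given here, and the cause of these shifts was not tested.

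Several small log2 fold changes turned positive. With the total count covariate they were, for Mel321-31, 0.0246 (mt-Nd1), 0.0393 (mt-Nd5), 0.15 (mt-Nd6), 0.098 (mt-Co1) and 0.006 (mt-Cytb), for Mel322-34 0.12 (mt-Nd5) and 0.049 (mt-Co1), and for Mel321-35 0.076 (mt-Nd1), 0.062 (mt-Nd2), 0.081 (mt-Nd5) and 0.0047 (mt-Nd6). With that covariate 0, 63 and 7 genes of the whole table were called for Mel321-31, Mel322-34 and Mel321-35 against MGO.53. For mt-Nd5 with Mel322-34 it was 0.0163 by limma-voom, 0.0084 with total count scaling, 0.0001 with no filter, 0.0037 with a replicate block, 0.058 with the length trend removed and -0.078 to 0.071 with libraries left out. With Mel321-35 mt-Nd1 was 0.0198 with the length trend removed and mt-Nd5 0.0009 by limma-voom, and with libraries left out mt-Nd1 ran from -0.083 to 0.047, mt-Nd2 from -0.14 to 0.012, mt-Nd5 from -0.095 to 0.054 and mt-Nd6 from -0.38 to 0.031. Of these, mt-Cytb with Mel321-31 was called as reported and the others were not, and the cause was not tested.

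Replicate numbers did not pair the samples: of 18 pairs with the same number 0 had a correlation of deviations over 0.1 (-0.092 to 0.090), and the replicate block left the Mel321-31 count at 3. The 24 RNA genes, fixed as a result of their own, gave no value. A count of 0 allows up to 0.0790 to 0.154 CPM, by counting error only. Leaving out a Mel321-35 library leaves 1 sample in that group, which is then assumed to vary like the others.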
